A study of Mus musculus with 25 samples.

Results

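The comparison described here set PD1+CD73+ cells against PD1- cells among the fetus/graft-specific CD8+ T cells (TFGS) of sensitized post-partum mice, by ATAC-seq. Its members were all libraries labelled S+P C5 (4) and S+P C4 (4), which made 8 of the 25 libraries of the series, and all 13527 peaks of the merged peak set were tested. The mice were C57BL/6 females that had rejected the skin graft of a male 2W-OVA.BALB/c donor and had then carried a semi-allogeneic pregnancy sired by a 2W-OVA.BALB/c male. Both subsets therefore shared the graft, the pregnancy and the time of harvest, in the first days after delivery, and their labels differ in the sort gate. CD8+ T cells that bound a tetramer of the OVA peptide with H-2Kb were taken from spleen and lymph nodes of single mice. C4 was the PD1- fraction and C5 the PD1+CD73+ fraction. Other groups served for reference. N+P C1 (PD1-, 3 libraries) and N+P C5 (PD1+CD73+, 3) came from mice with the pregnancy and no graft, Naive (3) from mice with neither, Sensitized (4) from mice with the graft alone, and S+P C7 (4) was the PD1+ fraction without CD73 of the same kind of mice as C4 and C5. The females were bought as young adults, their age at harvest was not given in the sources used here, and the tetramer limits the cells to a single graft antigen.

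PD1, encoded by Pdcd1, is a co-inhibitory receptor that dampens signals of the T cell receptor, and CD73, encoded by Nt5e, is a surface enzyme that makes adenosine from AMP. CD8+ T cells that meet their antigen for long take up a state called exhaustion, in which several co-inhibitory receptors stay on the surface, the transcription factor TOX is high, and many enhancers open that are closed in memory cells. ATAC-seq reads this state at the level of chromatin, because the transposase can enter open DNA only, and the number of reads in a peak measures how often the site was cut. Counts are given here as normalised read counts, that is, divided by the size factor of each library, and a peak is named by the protein-coding gene whose start lies closest to it, which does not show that it acts on that gene. In sorted populations a change in the share of cells with an open site and a change in accessibility per cell cannot be told apart.

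The windows below are the 300 bp around the midpoint of 7 peaks on which the results turn. They are shown because they include the peak with the smallest adjusted p in each direction among the list genes (Dgkh and Satb1) and peaks of co-inhibitory receptors (Tigit, Btla), of the exhaustion regulator Tox, of the death ligand Fasl and of the naive and memory cell factor Lef1. All are printed on the plus strand of GRCm39. Capitals mark matches, on either strand, to 5 short motifs: TGANTCA for AP-1, TGGAAA for NFAT, TGTGGTT for RUNX, GGTGTGA for T-box factors and CTTTGA for TCF/LEF. The first 5 windows opened in C5 and the last 2 closed.
Dgkh: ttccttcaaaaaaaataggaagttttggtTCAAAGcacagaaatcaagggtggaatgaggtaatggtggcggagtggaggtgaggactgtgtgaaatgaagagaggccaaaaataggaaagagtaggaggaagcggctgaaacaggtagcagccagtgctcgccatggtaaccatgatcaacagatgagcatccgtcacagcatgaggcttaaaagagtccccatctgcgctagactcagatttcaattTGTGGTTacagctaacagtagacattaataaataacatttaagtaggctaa
Tigit: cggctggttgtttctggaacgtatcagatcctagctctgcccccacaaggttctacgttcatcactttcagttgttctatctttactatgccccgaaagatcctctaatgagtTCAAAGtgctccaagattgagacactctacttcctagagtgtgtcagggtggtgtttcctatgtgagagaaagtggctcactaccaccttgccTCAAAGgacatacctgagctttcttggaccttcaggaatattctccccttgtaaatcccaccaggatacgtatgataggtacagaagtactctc
Btla: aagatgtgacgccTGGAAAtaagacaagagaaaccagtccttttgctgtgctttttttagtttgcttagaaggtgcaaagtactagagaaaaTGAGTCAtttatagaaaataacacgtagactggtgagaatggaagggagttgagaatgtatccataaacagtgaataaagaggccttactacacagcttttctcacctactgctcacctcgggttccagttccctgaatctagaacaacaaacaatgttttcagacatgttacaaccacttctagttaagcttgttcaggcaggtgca
Tox: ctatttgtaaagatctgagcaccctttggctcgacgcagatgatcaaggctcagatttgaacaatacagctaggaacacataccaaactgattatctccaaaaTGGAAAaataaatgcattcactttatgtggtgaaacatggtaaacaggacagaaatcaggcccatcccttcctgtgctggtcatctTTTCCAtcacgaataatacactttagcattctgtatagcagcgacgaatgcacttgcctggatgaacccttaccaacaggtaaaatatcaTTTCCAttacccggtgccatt
Fasl: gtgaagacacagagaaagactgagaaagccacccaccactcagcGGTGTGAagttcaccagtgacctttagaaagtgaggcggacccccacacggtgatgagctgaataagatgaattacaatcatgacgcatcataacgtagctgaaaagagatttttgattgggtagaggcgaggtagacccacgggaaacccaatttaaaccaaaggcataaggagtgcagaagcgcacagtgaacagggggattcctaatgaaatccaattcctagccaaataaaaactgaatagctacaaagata
Satb1: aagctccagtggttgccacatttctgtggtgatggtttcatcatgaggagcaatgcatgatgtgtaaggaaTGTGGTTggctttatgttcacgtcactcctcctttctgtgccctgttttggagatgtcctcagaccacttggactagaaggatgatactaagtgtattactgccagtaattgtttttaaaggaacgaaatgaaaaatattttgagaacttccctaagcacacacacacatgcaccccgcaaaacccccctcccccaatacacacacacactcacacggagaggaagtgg
Lef1: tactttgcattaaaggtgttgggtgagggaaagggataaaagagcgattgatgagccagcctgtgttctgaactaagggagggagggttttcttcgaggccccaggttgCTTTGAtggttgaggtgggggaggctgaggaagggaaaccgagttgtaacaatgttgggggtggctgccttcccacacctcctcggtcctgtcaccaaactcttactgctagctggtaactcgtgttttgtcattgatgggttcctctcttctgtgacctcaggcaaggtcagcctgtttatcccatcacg
The windows lie at chr14:78936680-78936979 (intron of Dgkh), chr16:43482120-43482419 (intron of Tigit), chr16:45072253-45072552 (exon of Btla), chr4:6882651-6882950 (intron of Tox), chr1:161514758-161515057 (between genes), chr17:52475515-52475814 (between genes) and chr3:130984400-130984699 (intron of Lef1). The Tox window held 3 matches to the NFAT letters and the Btla window 1 match each to the AP-1 and NFAT letters. Of all 13527 windows of this length, 9.16% held the AP-1 letters, 18.1% those of NFAT, 10.8% those of RUNX, 5.13% those of T-box factors and 16.2% those of TCF/LEF. A match is a description of letters and not a bound site.

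Library totals ranged from 2430890 counts (C4 library 1) to 25419715 (C5 library 1), so the libraries with number 1 differed in depth by a factor of 10.5. With every library thinned to the shallowest total, 432 peaks opened and 278 closed, close to the counts given below for full depth. Peaks nearest to 12 of 13 T cell identity genes were present in both subsets, with summed normalised read counts of 19279 to 22402 in C4 and 20149 to 24525 in C5. Of 21 defining genes of CD4+ T, B, NK, myeloid and erythroid cells, 4 (Cd4, Klrb1c, Cd74 and Klf1) were nearest to a peak, and their 11 peaks summed to 5631 to 5702 in C4 and 4926 to 5459 in C5, with none called. The labels name replicates by number. Peak p-values of the main DESeq2 fit use a spread between libraries that is estimated over all 25 libraries of the 7 groups. They do not use the number as a pairing, which an alternative fit did. The share of a library's counts in promoter peaks was 66.6% ± 1.69 (SD, n = 4) in C4 and 66.4% ± 1.22 (SD, n = 4) in C5, a difference of -0.21 percentage points (exact two-sided permutation test, p = 0.886, with 0.0286 the smallest p possible).

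To determine which chromatin sites separate the PD1+CD73+ from the PD1- cells, accessibility was compared peak by peak. In C5, 422 peaks were more accessible than in C4 (opening) and 270 were less accessible (closing), out of 13527 (5.12% called, 3.12% opening and 2.00% closing, DESeq2, adjusted p < 0.1 and absolute log2 fold change > 0.9). With this scaling opening peaks had the larger changes, with a median log2 fold change of 1.41 and a maximum of 4.43, and 102 of them exceeded 2. Closing peaks had a median of -1.24 and a minimum of -2.82, and 8 exceeded 2 in size. Over all peaks the median was -0.01. The tested peaks were merged from reproducible peaks of each group, and the peak list of C4 held 3788 peaks against 11384 for C5. Of the 422 opening peaks, 270 overlapped the C5 list alone, so they entered the test through the group where they are high. The part of this in the number and size of opening changes was not tested. Without the fold threshold 1797 peaks passed (980 opening, 817 closing). Just inside the fold threshold lay peaks near Maml2 (-0.90), Efr3a (-0.90) and Rad23b (-0.90) and just outside peaks near Wwox (-0.90), A3galt2 (0.90) and Itpr2 (-0.89). Other size factors left the split of the calls near this, with 424 opening and 252 closing peaks (total count), 421 and 266 (promoter peaks) and 417 and 296 (TMM). With an offset that removes trends of each library with mean count (loess), 249 peaks opened and 460 closed, so that opening peaks fell from 61.0% to 35.1% of calls, and 249 of the 422 opening peaks and 269 of the 270 closing peaks were still called.

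**Figure D1:**
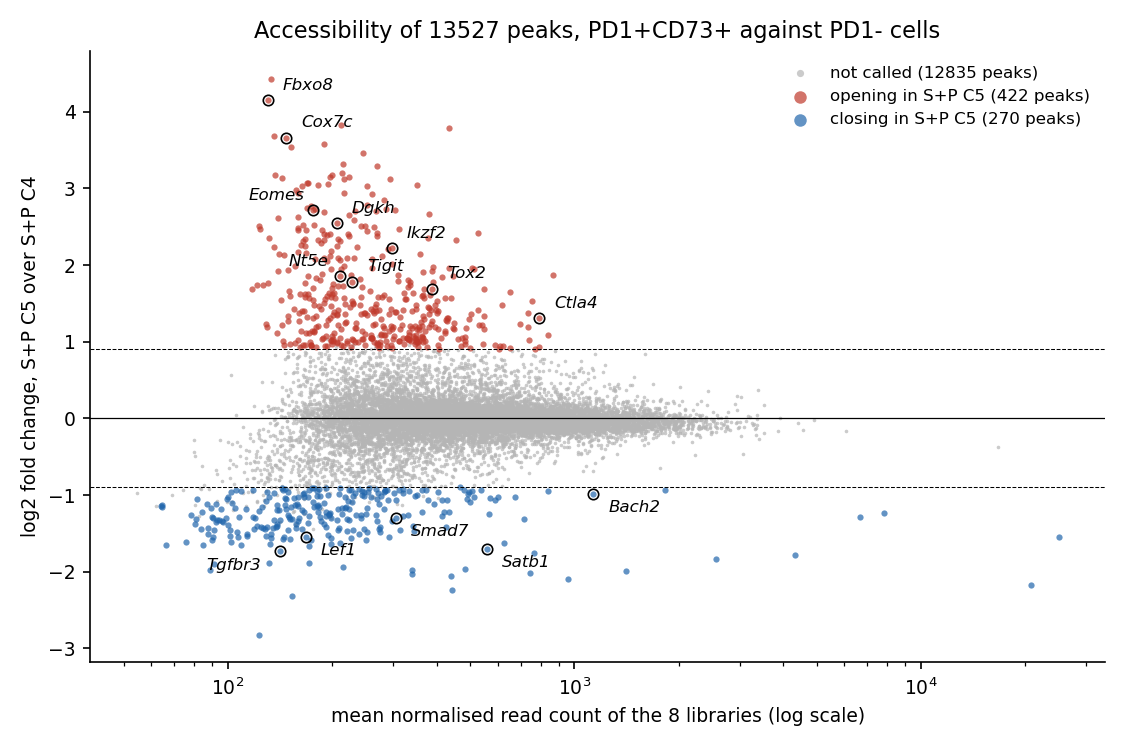
Log2 fold change of S+P C5 over S+P C4 (y axis) against the mean normalised read count of the 8 libraries (x axis, log scale) for 13527 peaks, with 422 opening peaks in red, 270 closing peaks in blue and dashed lines at the fold threshold. Circles mark 14 peaks by their nearest gene. Opening peaks reach 4.43 and lie mostly at low mean counts, while a few closing peaks lie at very high counts.

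Opening and closing peaks differed in how they behaved between libraries. Of the 422 opening peaks, 398 had no overlap between the C4 and C5 libraries (7.18% of all peaks had none with C5 higher), and all 422 were higher in C5 within each of the 4 numbers. Such counts use the same libraries that made the calls, so they describe the called peaks and are no separate support. Of the 270 closing peaks, 81 had no overlap (4.55% of all peaks with C5 lower), although 259 were lower in C5 within each of the 4 numbers. The C4 libraries spread widely at these sites. Their medians over the closing peaks were 383, 284, 163 and 185 normalised read counts for numbers 1 to 4, against 158, 84.9, 95 and 94.8 in C5. Over the opening peaks the medians were 129, 137, 140 and 112 in C4 and 360, 472, 340 and 297 in C5. Leaving out the number 2 libraries lowered the calls to 405 (327 opening, 78 closing), without C4 library 1 there were 430 opening and 113 closing peaks, and without C5 library 2 there were 341 and 146. Without C5 library 1, 409 peaks closed and 421 opened.

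Called peaks lay away from promoters. Promoter peaks, with a midpoint within 1000 bp of a transcript start, made up 56.7% of all peaks but 4.98% of opening peaks (21) and 5.19% of closing peaks (14). Of 7670 promoter peaks 0.456% were called, and of 5857 distal peaks 11.2%. Introns held 228 opening and 136 closing peaks, and 161 and 106 lay between genes. The median distance to the nearest gene start was 38246 bp for opening and 40204 bp for closing peaks, against 1595.5 bp for all peaks. Opening peaks were also shorter (median 690.5 bp) and poorer in G and C (45.9%) than all peaks (963 bp, 54.4%), as were closing peaks (760 bp, 47.0%).

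Short motifs known from T cell factors were counted in the same 300 bp window of each distal peak. AP-1, the dimer of JUN and FOS family proteins, had its letters in 28.9% of 401 opening distal peaks, 6.25% of 256 closing distal peaks and 15.8% of all 5857 distal peaks. NFAT, the calcium-dependent factor downstream of the T cell receptor, had matches in 37.7% of opening, 25% of closing and 25.4% of all distal peaks. Thus AP-1 letters were more frequent in opening and less frequent in closing peaks than over all distal peaks, whereas NFAT letters were more frequent in opening peaks alone. For T-box factors, the family of T-bet and EOMES, the shares were 14.2%, 7.81% and 7.72%. TCF/LEF letters, those of the factors TCF1 and LEF1, were found in 31.7%, 30.1% and 25.5%. RUNX shares were close to one another, at 19.2% of opening, 22.3% of closing and 20.1% of all distal peaks. KLF matches (GGGNGTGG) were found in 9.23%, 10.5% and 14.0%, E-boxes (CAGCTG) in 16.2%, 16.8% and 18.8%, and CTCF matches (AGGGGGC) in 2.99%, 1.56% and 5.05%. The remaining families were close to the shares of all distal peaks or rare: NR4A (AAGGTCA, 6.48%, 6.25% and 4.90%), IRF (6.73%, 5.47% and 6.40%), ETS (CCGGAAGT, 0.998%, 0.781% and 1.37%) and NF-kB (1.75%, 0.391% and 0.973%). Matches were counted on both strands and may overlap those of another family. Base composition moved with these shares, since median G and C content was 45.7% in opening, 47.0% in closing and 48.1% in all distal peaks, and its part in them was not tested.

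**Figure D2:**
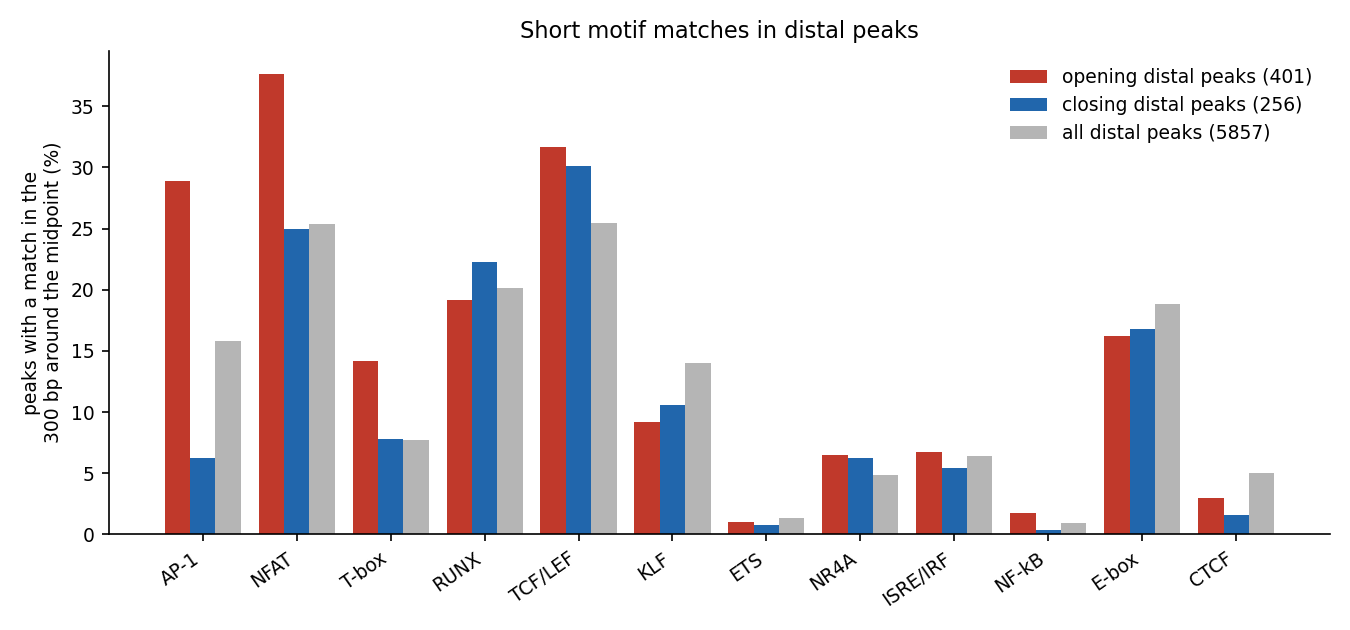
Share of distal peaks (y axis, %) with at least 1 match to each of 12 short motifs (x axis) in the 300 bp around the peak midpoint, for 401 opening, 256 closing and all 5857 distal peaks. AP-1, NFAT and T-box letters stand higher in opening peaks, and AP-1 letters stand lowest in closing peaks.

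Co-inhibitory receptors, which limit T cell activation, had 24 peaks near 8 of the 12 genes listed, and 6 of these peaks opened and none closed (25% opening, against 3.12% of all peaks). All peaks form a low base here and for the lists below, since 11.2% of distal but 0.456% of promoter peaks were called. Of 5857 distal peaks, 401 opened and 256 closed, and the distal share of each list was not taken into account. The median log2 fold change of the 24 peaks was 0.32. Of the 6, 3 lay near Pdcd1, whose product was used to sort the groups, and without Pdcd1 the list had 3 opening peaks of 19 (15.8%), at Tigit, Ctla4 and Btla (5 of 19, 26.3%, without C4 library 1). Those 3 were called in each of 23 alternatives, although Tigit fell to a log2 fold change of 0.92 (threshold 0.9) with loess offsets. The list as a whole had 3 opening peaks without the number 2 libraries. With loess offsets it had 5 opening and 3 closing peaks, the closing ones near Havcr2 and Entpd1. No peak had Lag3, Cd160, Cd244a or Cd200r1 as its nearest gene. Tigit, a receptor that competes with CD226 for ligands on antigen-presenting cells, had an intronic peak 2240 bp from its start with 136, 81.8, 97.6 and 104 normalised read counts in C4 libraries 1 to 4 and 339, 386, 369 and 315 in C5. All C5 libraries lay above all C4 libraries, and the log2 fold change was 1.78 ± 0.19 (SE, as for all fold changes below; adjusted p = 3.27e-16). Ctla4, which outcompetes CD28 for its ligands, had a peak over its exon with 623, 566, 304 and 344 in C4 and 1049, 1371, 995 and 1090 in C5 (log2 fold change 1.31 ± 0.22, adjusted p = 4.74e-07). Btla, a receptor for HVEM, had a peak with 272, 204, 113 and 91.9 in C4 and 475, 565, 368 and 335 in C5 (1.38 ± 0.35, adjusted p = 0.00189). In both genes the groups did not overlap.

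The sort gate itself could be seen at its own genes, which is a check and not a finding. Pdcd1 opened at 3 of its 5 peaks. The peak 3016 bp upstream of its start had 323, 266, 461 and 300 normalised read counts in C4 and 758, 895, 850 and 532 in C5 (1.17 ± 0.31, adjusted p = 0.00374). A further peak, 22416 bp away, rose by 1.56 ± 0.47 (adjusted p = 0.0124), with overlap because C5 library 4 had 247 and C4 library 3 had 253, and an intronic peak rose by 1.04 ± 0.36 (adjusted p = 0.0415). Without the number 2 libraries none of the 3 Pdcd1 peaks was called (adjusted p = 0.118, 0.118 and 0.391). The first intron of Nt5e held a peak that had 170, 70.1, 89.1 and 49.4 in C4 and 311, 311, 414 and 275 in C5 (1.85 ± 0.34, adjusted p = 5.40e-06), while the CD73-negative C7 cells averaged 87.5 ± 42.3 (SD, n = 4).

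Transcription factors of exhausted and effector cells had 103 peaks near 23 of 24 genes, of which 11 opened (10.7%) and 2 closed (1.94%), with a median of 0.20. Tox, the factor that installs the exhausted chromatin state, opened at 3 intronic peaks of its 8. The strongest had 81.7, 42.8, 99.0 and 22.2 normalised read counts in C4 and 204, 320, 449 and 235 in C5 (2.33 ± 0.45, adjusted p = 1.31e-05), and the others rose by 1.31 ± 0.25 and 1.20 ± 0.35. Its relative Tox2 opened at its promoter, 243 bp from the start, with 235, 201, 134 and 170 in C4 and 638, 810, 442 and 484 in C5 (1.69 ± 0.30, adjusted p = 2.08e-06). This was 1 of only 21 opening peaks at a promoter. Eomes, a T-box factor of memory and exhausted cells, had a peak 160585 bp away with 71.5, 61.0, 49.5 and 9.51 in C4 and 320, 499, 276 and 124 in C5 (2.72 ± 0.49, adjusted p = 2.30e-06). Ikzf2, which encodes Helios, had an intronic peak with 160, 139, 66.5 and 62.8 in C4 and 545, 620, 338 and 453 in C5 (2.22 ± 0.40, adjusted p = 3.48e-06). Id2, an inhibitor of E proteins, rose by 1.67 ± 0.30 and Maf, a factor of IL-10 producing and exhausted cells, by 1.64 ± 0.41 at peaks 208816 and 237283 bp from their starts.

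Nfatc1, the NFAT family member that is induced by activation, had peaks in both directions. A peak in its intron rose from 405, 466, 497 and 418 normalised read counts in C4 to 859, 1341, 1075 and 819 in C5 (1.19 ± 0.24, adjusted p = 2.67e-05), and a neighbouring peak rose by 0.94 ± 0.15. Another peak nearest to Nfatc1, within an intron of Atp9b, fell by 1.37 on the log2 scale (SE 0.43, adjusted p = 0.0207) and was not called without C4 library 1, without C5 library 2 or without both number 2 libraries. Rbpj, the DNA-binding partner of Notch, passed narrowly at 0.94 ± 0.37 (adjusted p = 0.0879) and was called in 8 of 23 alternatives. The other closing peak of the list was near Bhlhe40, a repressor needed for cytokine production and residency, which fell by 1.03 (SE 0.19, adjusted p = 2.97e-06) from 374, 306, 274 and 223 to 159, 109, 128 and 165. Under loess offsets Eomes, Maf and 2 of the 3 Tox peaks were no longer called (log2 fold changes 0.81, 0.27, 0.80 and 0.48), and the list had 6 opening peaks.

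**Figure D3:**
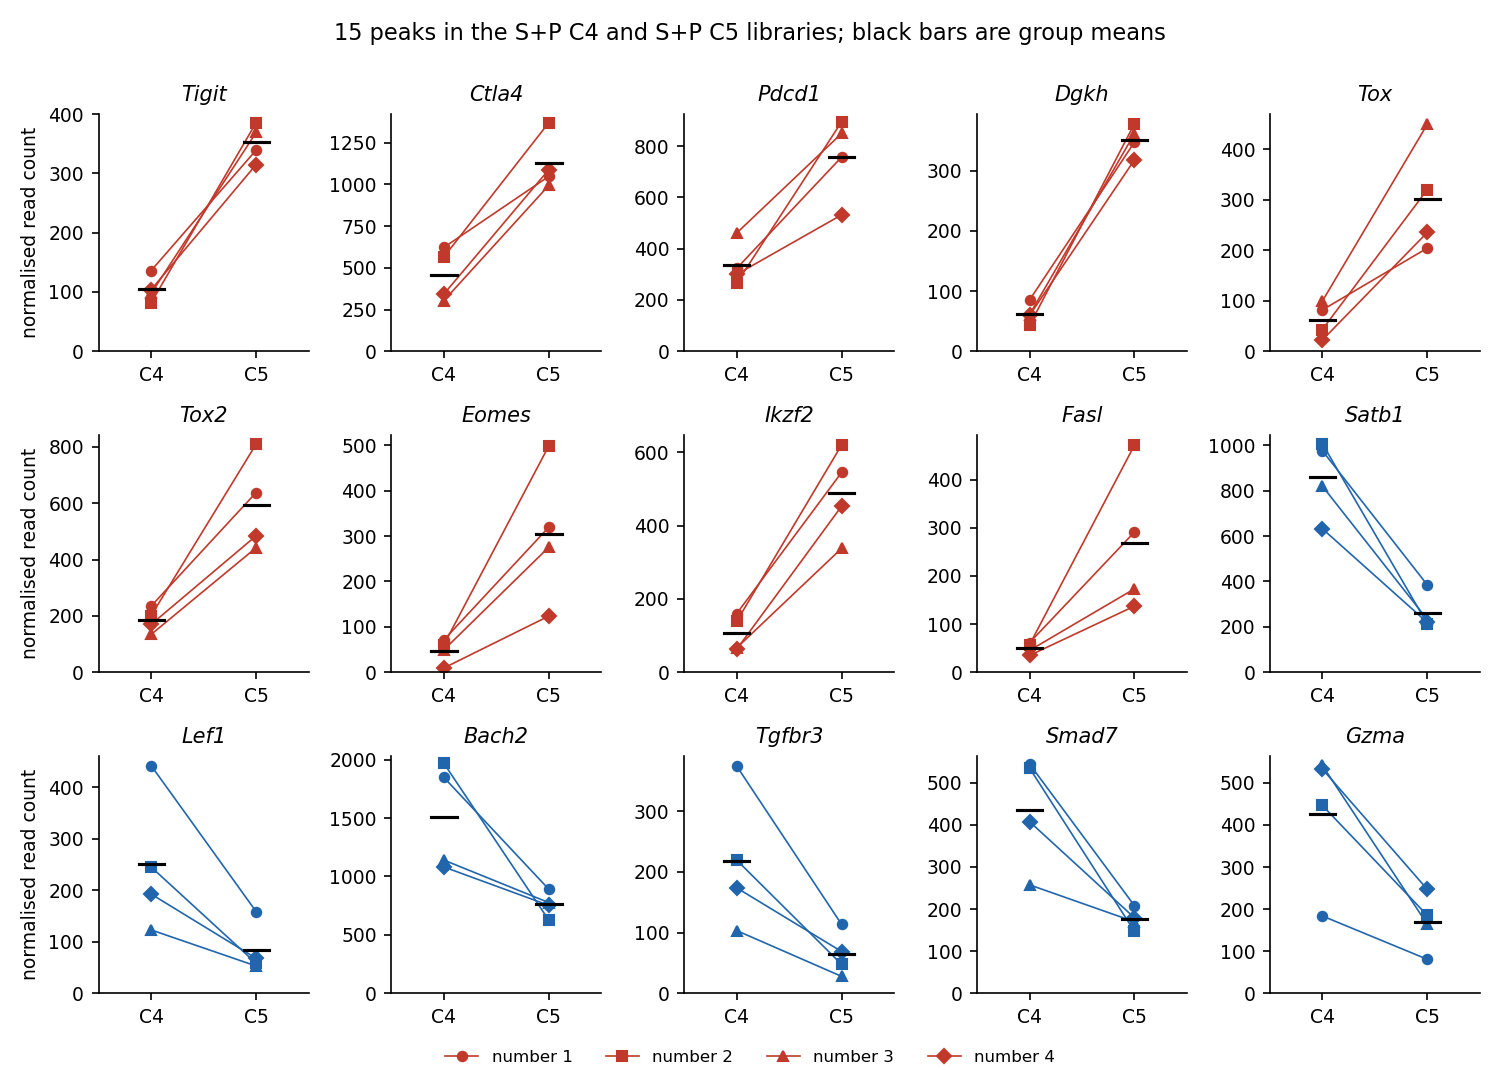
Normalised read counts (y axis, from 0) of 15 peaks, named by nearest gene, in the S+P C4 and S+P C5 libraries (x axis). Lines join libraries with the same number, and black bars are the means of 4 libraries. In the 9 opening peaks every C5 library stands above every C4 library, whereas for Lef1, Tgfbr3 and Gzma the groups overlap although each line falls.

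Genes of naive, memory and stem-like cells had 152 peaks near all 19 genes, with 13 closing (8.55%, against 2.00% of all peaks) and 6 opening (3.95%), at a median of -0.13. All 13 closing peaks were near 3 genes. Satb1, a chromatin organiser that is high in naive T cells, closed at 6 of its 12 peaks. At the strongest, 335042 bp away, normalised read counts were 977, 1007, 820 and 633 in C4 and 385, 214, 233 and 219 in C5 (-1.70 ± 0.25, adjusted p = 3.80e-09), with no overlap. Bach2, a repressor that preserves memory and restrains effector genes, closed at 5 of 13 peaks, all in its introns between 52408 and 125796 bp from the start. The peak with the smallest p among them had 1848, 1968, 1140 and 1081 in C4 and 890, 624, 776 and 752 in C5 (-0.98 ± 0.18, adjusted p = 5.17e-06). Lef1, a partner of TCF1 in naive and stem-like cells, closed at 2 intronic peaks. The first had 442, 245, 123 and 193 in C4 and 159, 58.2, 53.0 and 67.9 in C5 (-1.54 ± 0.43, adjusted p = 0.00598), so that C5 library 1 overlapped C4 library 3 while each number fell. Without C4 library 1 the list had 6 closing and 5 opening peaks, and without the number 2 libraries 8 and 5.

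Tcf7, which encodes TCF1, had 6 peaks, none of them called, of which 2 had a log2 fold change above 0 and 4 below 0 (median -0.05). The peak with the smallest p, at a promoter within the gene, had 759, 488, 467 and 422 normalised read counts in C4 and 770, 768, 748 and 613 in C5, a log2 fold change of 0.46 ± 0.17 that was not called (adjusted p = 0.0581). The 6 opening peaks of this list were near Ets1 (1.75 ± 0.26), Slamf6 (1.57 ± 0.30), Cxcr5 (1.20 ± 0.26), Klf3 (1.14 ± 0.17), Foxp1 (0.98 ± 0.22) and Myb (0.91 ± 0.33). Slamf6 and Cxcr5 mark progenitors among exhausted cells, and Slamf6 had 116, 90.9, 146 and 63.4 in C4 against 255, 367, 322 and 272 in C5. Myb passed narrowly (adjusted p = 0.059) and was called in 8 of 23 alternatives. It was not called without C5 library 2, without the number 2 libraries or with the number as a block, where its log2 fold change was 0.90 and just under the threshold.

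Effector molecules and NK-type receptors had 61 peaks near 16 of 21 genes, with 5 opening (8.20%), 1 closing (1.64%) and a median of -0.08. Fasl, the ligand of the death receptor FAS, accounted for 4 of the 5 opening peaks, which lay 59759 to 113786 bp from its start. The 2 strongest had 40.8, 24.7, 63.7 and 24.7 normalised read counts in C4 and 213, 344, 185 and 97.0 in C5 (2.46 ± 0.44, adjusted p = 2.14e-06), and 61.2, 57.1, 45.3 and 34.9 against 291, 471, 173 and 137 (2.45 ± 0.43, adjusted p = 1.46e-06). The fifth was an intronic peak of Cx3cr1, a chemokine receptor of effector cells (1.19 ± 0.32, adjusted p = 0.00455). A peak nearest to Gzma, the gene of granzyme A, closed. It lay in an intron of Cdc20b and had 184, 447, 542 and 533 in C4 and 80.8, 185, 164 and 247 in C5 (-1.34 ± 0.50, adjusted p = 0.0627), and it was called in 11 of 23 alternatives. The calls of this list depended most on the scaling, since under loess offsets none of its peaks opened and 10 closed. Its median was then -0.25. With the number as a block 5 opened and 3 closed. No call was made at Gzmb, Ifng, Tnf or Klrg1.

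Genes of anergy, of CD73 and of the diacylglycerol kinases, which end the signal of diacylglycerol after the T cell receptor, had 69 peaks near 16 of 18 genes, with 4 opening (5.80%) and none closing, at a median of 0.09. Without Nt5e, whose product was also part of the sort, 3 of 64 peaks opened (4.69%), near the 3.12% of all peaks. Dgkh, a diacylglycerol kinase, had the smallest adjusted p of all named peaks. Its intronic peak had 85.1, 42.8, 60.8 and 59.6 normalised read counts in C4 and 347, 378, 361 and 318 in C5 (2.55 ± 0.27, adjusted p = 1.69e-17), and the groups did not overlap. Egr2, a factor induced in anergic T cells, had a peak 37699 bp away with 201, 276, 197 and 162 in C4 and 386, 516, 427 and 405 in C5 (1.05 ± 0.21, adjusted p = 2.10e-05). Cblb, an E3 ubiquitin ligase that raises the threshold of T cell activation, opened at an intronic peak (1.24 ± 0.45, adjusted p = 0.0504) that was called in 14 of 23 alternatives. The fourth was the Nt5e peak of the gate.

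Cytokine receptors with JAK-STAT and TGF-beta signalling had 114 peaks near 27 of 31 genes, with 5 opening (4.39%), 8 closing (7.02%) and a median of -0.07. With loess offsets 3 opened and 11 closed, and without the number 2 libraries 3 opened and 5 closed. Peaks of the TGF-beta pathway, which restrains T cells and supports residency, were among those that closed. Tgfbr3, a co-receptor of TGF-beta, had an intronic peak with 374, 219, 103 and 174 normalised read counts in C4 and 113, 47.4, 27.7 and 68.7 in C5 (-1.73 ± 0.49, adjusted p = 0.00697), with overlap between the groups. The receptor Tgfbr2 closed at 2 peaks, of which the one 193522 bp away had 664, 815, 813 and 898 in C4 and 357, 306, 422 and 448 in C5 (-1.06 ± 0.17, adjusted p = 2.64e-08). Smad7, the inhibitor of this pathway, closed at 2 peaks as well, 1 with 544, 535, 257 and 408 in C4 and 208, 147, 170 and 179 in C5 (-1.29 ± 0.23, adjusted p = 2.30e-06). The other closing peaks were 2 at promoters of Il12rb2, a subunit of the IL-12 receptor (-1.12 ± 0.29 at the peak 5 bp from its start), and 1 at Il21r (-0.93 ± 0.31). The Il21r peak was called in 17 of 23 alternatives and not without C4 library 1, C4 library 2, C5 library 2, C5 library 4 or the number 2 libraries.

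Opening peaks of this list were near Il15ra, which presents IL-15, with 157, 67.5, 66.5 and 48.2 normalised read counts in C4 and 437, 474, 361 and 274 in C5 (2.24 ± 0.43, adjusted p = 1.12e-05), and near Il6st, the shared signalling chain gp130 (1.58 ± 0.24, adjusted p = 1.36e-08). Jak2 (1.21 ± 0.37), Stat4 (1.16 ± 0.39) and Socs1 (0.96 ± 0.25) completed them. The Jak2 and Stat4 peaks were not called under loess offsets or without the number 2 libraries.

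Chemokine receptors, adhesion molecules and residency genes had 74 peaks near 17 of 21 genes, and 10 opened (13.5%) while 2 closed (2.70%), at a median of 0.10. Cd44, the hyaluronan receptor of antigen-experienced T cells, opened at 3 of 8 peaks. At the strongest, 55280 bp from its start, there were 105, 140, 201 and 154 normalised read counts in C4 and 661, 972, 787 and 622 in C5 (2.33 ± 0.34, adjusted p = 2.31e-09). Gpr183, a receptor for oxysterols that guides cells in lymphoid tissue, had a peak in an intron of Ubac2 with 221, 154, 214 and 128 in C4 and 682, 805, 746 and 528 in C5 (1.96 ± 0.25, adjusted p = 1.43e-12). Cxcr4, the receptor for CXCL12, opened at 3 peaks 190109 to 240229 bp away and closed at 1 peak 10409 bp away (-1.30 ± 0.36). Single opening peaks were near Cd69 (1.09 ± 0.34), Itga4 (1.11 ± 0.26) and Cxcr3 (1.00 ± 0.30), and Rgs2 had the second closing peak (-0.94 ± 0.24). Of the 3 Cd44 peaks, 2 were called in each of 23 alternatives and the weakest (1.00) in 17, not with loess offsets (0.54), without C4 library 1, C4 library 2 or C5 library 2, or without the number 1 or number 2 libraries. Itga4 was not called with loess offsets (0.50), Cd69 without C5 library 2, Cxcr3 without C5 library 3, and none of Cd69, Cxcr3 and Rgs2 without the number 2 libraries. The list had 7 opening and 2 closing peaks with loess offsets, at a median of -0.01, and 7 opening and 0 closing peaks without the number 2 libraries.

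The remaining lists had few calls. Costimulatory and TNF receptor genes had 41 peaks at a median of 0.27, and 17 of them (41.5%, against 15.97% of all peaks) were higher in C5 within each of the 4 numbers. Over the other lists this share ran from 0% (markers of other cells) to 54.2% (co-inhibitory receptors). It was 40.5% for chemokine receptors, adhesion and residency. Of the 41, 2 opened (4.88%) and none closed, both at Tnfrsf8, the gene of CD30. Its promoter peak (1.04 ± 0.21) was not called with loess offsets (0.71), and the other (0.96 ± 0.31) was not called in 5 alternatives, among them leaving out C4 library 1 or C5 library 2. The AP-1 family genes, whose motif was frequent in opening peaks, had 27 peaks with 1 call, an intronic peak of Jdp2 (1.04 ± 0.24, adjusted p = 0.000409), and their median was -0.02. T cell identity genes had 1 call in 44 peaks, an intronic peak of Cd247, the zeta chain of the T cell receptor complex (1.03 ± 0.25).

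**Figure D4:**
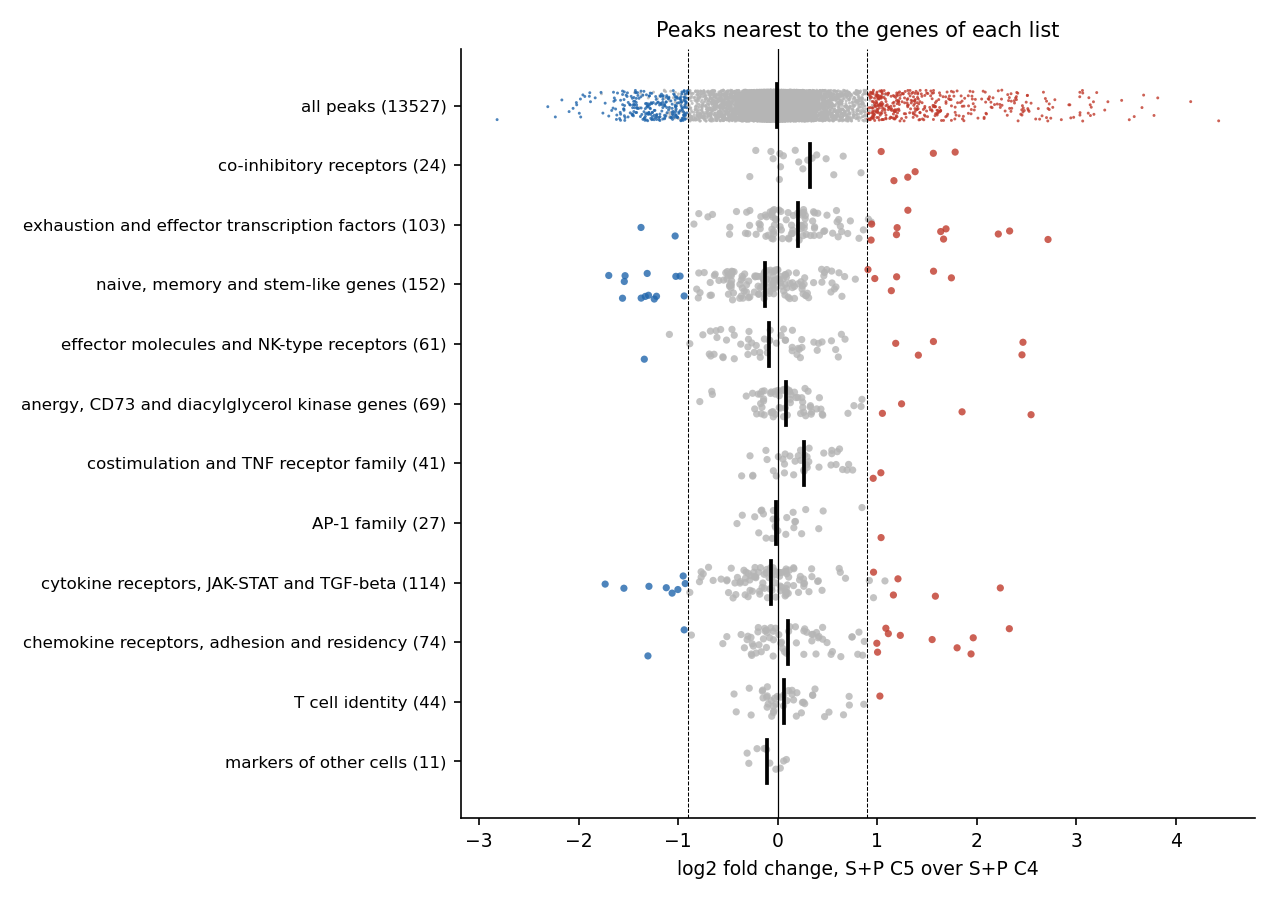
Log2 fold change of S+P C5 over S+P C4 (x axis) for all 13527 peaks and for the peaks nearest to genes of 11 lists (y axis, number of peaks in parentheses), with opening peaks in red, closing peaks in blue, medians as black bars and dashed lines at the fold threshold. The co-inhibitory list has 6 opening peaks, 3 of them near Pdcd1, and no closing peak with this scaling (5 and 3 with loess offsets), and the naive, memory and stem-like list has 13 closing peaks.

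Outside the lists, the opening peaks with the smallest adjusted p among those without overlap were of low accessibility in C4. A peak 106922 bp from Fbxo8, a gene of a ubiquitin ligase subunit, had 30.6, 11.7, 14.1 and 6.34 normalised read counts in C4 and 280, 280, 214 and 209 in C5 (4.15 ± 0.50, adjusted p = 1.90e-13). Near Cox7c, a subunit of cytochrome c oxidase, the counts were 23.8, 20.8, 24.0 and 19.0 in C4 and 280, 300, 292 and 221 in C5 (3.66 ± 0.42, adjusted p = 2.21e-14). The other 6 were near Mmp8 (2.25 ± 0.26), Spaca6 (3.18 ± 0.37), Znrf2 (2.34 ± 0.28), 1700014B07Rik (3.53 ± 0.42, within an intron of Celf2), Fam163a (3.14 ± 0.38, at its promoter) and Mapre2 (2.39 ± 0.29). All 8 were called in each of 23 alternatives. Among closing peaks the rule named Plekha6 (-0.97 ± 0.16), Irgc (-1.02 ± 0.17), Fxyd3 (-1.28 ± 0.22), Ggt1 (-1.40 ± 0.27, over an exon of Snrpd3) and Ppp2r5a (-1.11 ± 0.21) beside peaks already described. The Plekha6 peak was called in 19 of 23 alternatives, not after thinning, without C4 library 4, or without the number 3 or number 4 libraries. The Ppp2r5a peak was called in each of the 23.

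Some genes were nearest to several called peaks, although 594 of the 692 called peaks were at genes with 1 or 2. Whether this exceeds what the number of peaks per gene gives was not tested. Of 8647 genes nearest to a peak, 552 were nearest to a called peak and 27 to 3 or more, of which 15 had opening peaks alone, 7 closing peaks alone and 5 both. Ppp2r5c, a regulatory subunit of the phosphatase PP2A, had 4 opening peaks 57382 to 71702 bp from its start with log2 fold changes of 2.62 to 3.14. Ptger2, a receptor for prostaglandin E2, had 3 opening peaks with 2.07 to 3.04, and Mllt3, a reader of histone acylation, had 4 with 1.00 to 2.59. Rplp1 had 4 (1.40 to 3.07), and Cd9, Cables1, Ptpn13, Eif3h, Srek1ip1 and Tasor had 3 each. At Wwox, whose introns are very long, 3 peaks 363897 to 435980 bp from the start closed (-1.22 to -1.54) and 3 peaks 533801 to 625444 bp from it opened (1.41 to 3.29). Adgrl2 and Ugcg each had 2 opening and 1 closing peak. The opening peaks of these 27 genes depended on the scaling, since with loess offsets 31 of 61 were still called, among them 3 of 3 at Ptger2, 3 of 4 at Mllt3, 2 of 4 at Ppp2r5c and at Rplp1 and 0 of 3 at Ptpn13, and 1 Rplp1 peak turned from 1.43 to -0.08. All 34 closing peaks were still called with loess offsets, but 11 without C4 library 1 and 16 without the number 2 libraries. Of the 27 genes, 12 kept 3 or more called peaks with loess offsets, 15 without C4 library 1 and 13 without the number 2 libraries.

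Some closing peaks rested on 1 library. C4 library 1 had 5.23% of its counts in the 270 closing peaks, against 1.18% to 1.68% in the other C4 libraries. The 4 closing peaks nearest to Lrrc4c had 19293, 3008, 3286 and 1303 normalised read counts in C4 at the highest of them and 1053, 3329, 2427 and 1046 in C5 (-1.78 ± 0.60, adjusted p = 0.036), and without C4 library 1 none was called (adjusted p = 0.345 to 0.785), nor was any with the number as a block. In 19 of the 270 closing peaks C4 library 1 gave over 4 times the mean share of counts of the other C4 libraries, as did 29 of all peaks. On contigs with no annotated gene 3 peaks were called closing, and they took 1.37% of the counts of C4 library 1 and 0.0741% to 0.162% in the other 7 libraries. The 3 closing peaks of Dnaja2 fell within each number and had adjusted p = 0.0303, 0.0692 and 0.15 without that library. Galnt4, Otulinl and Slc6a19 also had 3 closing peaks each, of which 0, 0 and 1 were still called without C4 library 1 and 0, 1 and 0 without the number 2 libraries.

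The other groups place these sites. Over the 422 opening peaks the median of group mean normalised read counts was 62.7 in Naive, 53.4 in N+P C1, 77.3 in N+P C5, 153 in Sensitized, 131 in C4, 372 in C5 and 265 in C7. Sensitized and C4 libraries overlapped (105 to 179 and 112 to 140 by library), and so did C5 and C7 (297 to 472 and 171 to 347). Over the 270 closing peaks the medians were 428 in Naive, 397 in N+P C1, 380 in N+P C5, 253 in Sensitized, 262 in C4, 112 in C5 and 80.4 in C7. The Sensitized libraries spread widely here, at 135, 170, 358 and 333. In the authors' group peak lists, 409 of the 422 opening peaks (96.9%, against 82.9% of all peaks) overlapped a peak of the C5 list, 270 of them no peak of another list (1363 of all peaks), and none a peak of the C4 list (27.03% of all peaks), which held 3788 peaks against 11384 for C5. Of the closing peaks, 70.4% were in the Naive list and 71.5% in that of N+P C1, against 62.6% and 62.9% of all peaks. Among distal peaks alone, these shares were 70.7% and 71.5% of closing peaks, against 49.7% and 49.1% of all. The list of C4 held 11.9% of the closing peaks and that of C5 8.89%.

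**Figure D5:**
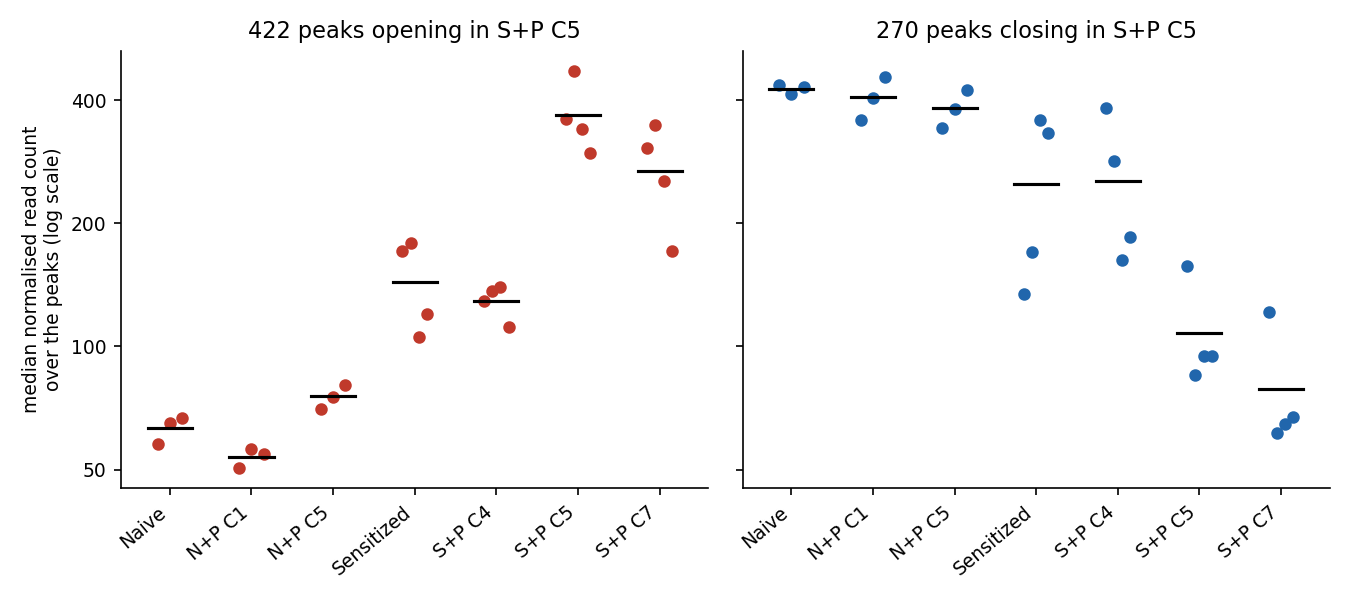
Median normalised read count (y axis, log scale) of each library over the 422 opening peaks (left) and the 270 closing peaks (right) in 7 groups (x axis), with points for libraries and bars for group means. Over opening peaks the S+P C5 libraries lie at 297 to 472 and the S+P C7 libraries at 171 to 347, and over closing peaks the Naive and N+P libraries lie at 342 to 456, a range that C4 library 1 (383) and 1 Sensitized library (358) also reach.

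To compare the same gate in mice without a graft, the difference between N+P C5 and N+P C1 was compared with that between S+P C5 and S+P C4. These contrasts share no library. In N+P mice 0 peaks were called (DESeq2, 308 at an unadjusted p < 0.05). Of the 422 opening peaks, 387 (91.7%) had a positive log2 fold change in N+P mice, with a median of 0.46, against 51.5% and a median of 0.004 of all peaks and 63.1% of all distal peaks. Within numbers the N+P medians were 0.46, 0.35 and 0.47, and those in S+P mice 1.46, 1.74, 1.31 and 1.42. Of the closing peaks, 186 (68.9%) were negative in N+P mice, with a median of -0.07. The difference of the effects was itself tested, and 80 peaks passed (0.591% of 13527), 56 higher in S+P (0.414%) and 24 lower (0.177%). Of these, 55 were opening and 14 closing peaks in the S+P comparison, and 11 were not called there. With the number as a block 519 peaks passed (218 higher and 301 lower), 79 of the 80 among them, whereas edgeR called 0 (1027 at an unadjusted p < 0.05), so this count depends on the tool and on the block.

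Dgkh had one of the clearest differences. Its peak had 64.2, 42.6 and 35.8 normalised read counts in N+P C1 and 79.5, 52.1 and 68.5 in N+P C5, a change of 0.47 ± 0.33, against 2.55 in S+P mice (difference 2.07 ± 0.42, adjusted p = 0.00419). At Mmp8 the difference was 2.07 ± 0.40 (adjusted p = 0.00126), at Tigit 1.41 ± 0.35 (adjusted p = 0.0228) and at the Tox2 promoter 1.76 ± 0.46 (adjusted p = 0.0441). Tox2 stood at 195, 212 and 198 in N+P C1 and at 186, 186 and 206 in N+P C5, that is, at the level of S+P C4. The strongest Satb1 peak kept 704, 888 and 963 in N+P C5 against 691, 961 and 1134 in N+P C1 (difference -1.57 ± 0.38, adjusted p = 0.0223). At other loci the difference between the effects did not pass this test, which does not show that they are alike, and 41 named peaks passed only with the number as a block. The strongest Tox peak rose in N+P mice from 16.6, 12.3 and 11.3 to 26.2, 26 and 26.5, by 0.95 in log2, below every S+P C5 library (difference 1.38, adjusted p = 0.671). With the number as a block this difference passed (1.51, DESeq2 adjusted p = 0.0902). Nt5e rose in N+P mice by 1.06, from 68.6, 58.3 and 56.5 to 112, 112 and 159 (difference 0.80, adjusted p = 0.824), and the Pdcd1 peak near the start by 0.59 (difference 0.57, adjusted p = 0.939).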

How the data were processed

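ATAC-seq was analysed from the deposited table of raw read counts per peak for 25 libraries. Per the methods, the authors trimmed reads with cutadapt 3.4, aligned them with Bowtie2 2.2.9 to GRCm39, removed PCR duplicates with Picard 2.21.8, called peaks per sample with Genrich 0.6.1 and merged reproducible peaks of the groups, and the counts are not normalised. The authors' group peak lists were used for their positions, and no score, signal, p-value or q-value deposited in them was used. Peaks were annotated with GENCODE vM39. Motifs were searched on both strands, the longer ones of IRF and NF-kB as an interferon response element and a kappa B site. Counts were fitted with DESeq2 1.42.0 (R 4.3.3) on all 25 libraries, with group as the only term, and called at adjusted p < 0.1 (Benjamini-Hochberg over 13527 peaks) and absolute log2 fold change > 0.9. On simulated counts for this comparison (13527 peaks), 95.9% of peaks changed by 1.5 in log2 and 99.0% of those changed by 2 were called, with 10 false calls. The simulation drew independent counts around the mean of each peak over all libraries, and the changed peaks were picked at random. It held no outlying library, pairing or trend with mean count, so its shares need not hold for the peaks called here. Named peaks were the 10 opening and 10 closing peaks with the smallest adjusted p among those without overlap, called peaks nearest to genes of 11 lists, the best peak of 6 genes, and genes with 3 or more called peaks. The comparison, the lists and the rule were chosen with earlier results of these data known. Deviations from the group means of C4 and C5 libraries with the same number in the labels correlated at r = 0.572, 0.103, 0.313 and 0.510 across peaks, and those of the N+P subsets at 0.400, 0.108 and 0.292. Over the 12 C4 and C5 pairs with different numbers r ran from -0.685 to 0.440, and 2 of these pairs (0.440 and 0.158) exceeded a same-number value of the same C4 library. The numbers were taken to pair the libraries since every same-number r within each contrast was above 0.1, although C4 and C7 libraries of number 2, which enter only the block over 12 libraries, had 0.0639, and a fit with the number as a block was an alternative beside edgeR 4.0.16, other size factors, loess offsets, thinning, filters, thresholds and leaving out each library. No libraries of a group were copies, since chi-square over degrees of freedom was at least 7.15 between C4 and 6.23 between C5 libraries. Library totals of 2430890 to 25419715 counts set the precision, and opening peaks had a median summed count of 427.5 in C4 and 2294.5 in C5.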

Additional observations from a re-analysis of the deposited data

Results flagged for a closer look

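Of 186 groups of 4 libraries, 13 held a library far from the other 3 by Dixon's criterion, and chance gives this in about 1 in 20 groups. In C4 these were library 1 at a Cd44 peak (157 normalised read counts), library 2 at Foxp1 (236) and Id2 (197), library 3 at Maf (157) and Cxcr3 (337) and library 4 at Il6st (95.1). In C5 they were library 1 at Lef1 (159), at 2 Satb1 peaks (88.3 and 385) and at the closing Nfatc1 peak (201), library 2 at Ets1 (715), library 3 at Fam163a (249) and library 4 at Tcf7 (613). C5 library 1 was the high library at 4 closing peaks and is also the deepest, and the part of depth in this was not tested.

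The effect of the gate differed between S+P and N+P mice at 80 peaks by the test of the difference itself, 22 of the 91 named peaks among them, and edgeR called none. The difference in log2 fold change was positive at Fam163a (2.51), Fasl (2.34 and 2.55), Tox2 (1.76), Znrf2 (1.60), Mmp8 (2.07), Egr2 (1.14), Cox7c (2.45), Dgkh (2.07), Gpr183 (1.60), Tigit (1.41), Spaca6 (2.18) and Mapre2 (1.83). It was negative at Plekha6 (-0.90), Ppp2r5a (-1.10), Bach2 (-0.93), Bhlhe40 (-0.96), Irgc (-1.19), Fxyd3 (-1.26), Tgfbr2 (-0.95) and 2 Satb1 peaks (-1.41 and -1.57). With the number as a block the Bach2 difference was -0.89, just under the fold threshold of 0.9 in size, and was not called.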

How the results depend on the processing

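Of 23 alternatives, 44 of the 90 called named peaks were called in each, and none of the 91 named peaks changed sign, whereas 1 of 61 opening peaks at genes with 3 or more calls did (Rplp1, loess offsets, -0.08). Without the fold threshold 1797 peaks passed (980 opening, 817 closing), and with loess offsets 249 opened and 460 closed. With the number as a block, which uses the pairing of the libraries, 742 peaks were called (739 with the 12 S+P libraries), 659 of the 692 among them, and Myb and, with 12 libraries, Il21r were lost among the 91 named peaks, while at genes with 3 or more calls 27 of 34 closing peaks were still called (31 with 12 libraries). Leaving out libraries gave 405 to 833 calls, 327 to 464 opening and 78 to 409 closing. The 80 differences between S+P and N+P effects became 0 with edgeR, 211 with only the groups compared, 42 at adjusted p < 0.05, 519 with the replicate block, 50 after thinning and 26 to 154 on leaving out a library. The difference in promoter share turned positive without number 2 (0.05 percentage points) and number 3 (0.16), with exact permutation p = 0.9 in both (range -0.75 to 0.16 over numbers left out), and paired sign flips over 4 numbers cannot give a p below 0.125. The cause of these changes was not tested. Of the 270 closing peaks, 89 were still called without C4 library 1, the shallowest, and 75 without the number 2 libraries.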
